A study of Rattus norvegicus with 24 samples.

Results

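The genes described here encode subunits of the AMPA and NMDA receptors, the main fast excitatory receptors of the brain. They were chosen by symbol, 10 of the 37403 gene identifiers in the deposited tables: Gria1, Gria2, Gria3 and Gria4 for the AMPA receptor, and Grin1, Grin2a, Grin2b, Grin2c, Grin2d and Grin3a for the NMDA receptor. All 10 passed the filter on low counts in each region. Their levels were set out by brain region and by the treatment of the father, together with the Gria1 to Gria2 and Grin2a to Grin2b ratios.

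AMPA receptors are tetramers of the GluA subunits and carry most of the fast response to glutamate. A GluA2 subunit translated from edited Gria2 RNA makes the channel nearly impermeable to calcium, so the amount of Gria1 relative to Gria2 is often followed in studies of addictive drugs. NMDA receptors need the obligatory GluN1 subunit, joined by GluN2 or GluN3 subunits that set the kinetics, the block by magnesium and the calcium flow, and GluN2A largely takes over from GluN2B in many forebrain synapses as animals mature.

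RNA was sequenced from bilateral punches of the ventral tegmental area (VTA), which holds dopamine neurons, and of the nucleus accumbens (NAC), a striatal target of those neurons. The rats were first-generation offspring, described as male and at least 60 days old, with no treatment of their own in the labels and no strain given. MOR-sired rats had fathers that self-administered morphine for 60 days, and SAL-sired rats had fathers that self-administered saline over the same period. There were 5 MOR-sired and 5 SAL-sired VTA libraries, and 7 MOR-sired and 7 SAL-sired NAC libraries. Neither animals nor litters are identified in the labels, nor whether the same rats gave VTA and NAC punches, so each p-value reflects only how these libraries varied.

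Library totals were 23.6 to 43.5 M estimated counts in VTA and 21.9 to 41.3 M in NAC (M as in megabase, the same unit as in CPM). Levels are given as CPM, counts per M counts after scaling between libraries with TMM factors. The deposited counts were made from abundances per transcript length, so levels of different genes can be compared per length. The summed level of 6 dopamine neuron markers was 2761 to 6735 CPM in VTA and 11.1 to 16.6 CPM in NAC. The summed level of 9 markers of striatal projection neurons was 256 to 349 CPM in VTA and 493 to 7508 CPM in NAC, and that of 6 markers of cortical glutamatergic neurons was 5.66 to 131 CPM in VTA and 136 to 1694 CPM in NAC. The NAC punches thus spanned a wide range of striatal and cortical marker content, with MOR-sired NAC 2 lowest in striatal markers and MOR-sired NAC 4 highest in striatal and lowest in cortical markers. Of the 9 striatal markers, 8 were lower in VTA than in NAC (edgeR's quasi-likelihood test, adjusted p under 0.05). Drd2 did not pass (log2 fold change 0.55, adjusted p 0.217), and its mean was higher in VTA, 133 CPM against 90.7. The striatal sum in VTA is therefore not read as striatal neuron content. In addition, 4 VTA libraries went against the description as male, of which SAL-sired VTA 5 was 1 and the others were MOR-sired VTA 3, 4 and 5. They held 78.3 to 102 CPM of Xist, the RNA of the inactive X chromosome, and at most 0.0714 CPM of the Y-linked Ddx3y, whereas the other 20 libraries held at most 0.233 CPM of Xist and at least 29.8 CPM of Ddx3y. The calls of the members, and the VTA sire differences of some, are therefore also given without these 4 libraries. This leaves 2 MOR-sired and 4 SAL-sired VTA libraries. The VTA levels of the markers and of other genes, and the ratios by library, are given with the 4 included.

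The fitted log2 differences of the subunits ran from -2.26 to 2.14 between the regions and from -0.27 to 0.10 between the sire groups. Of the 10, 8 were lower in VTA than in NAC, Grin2d was higher, and Gria4 did not pass the test (edgeR's quasi-likelihood test, Benjamini-Hochberg adjusted p under 0.05). In the same comparison 69.0% of the 20603 genes tested were called, 34.3% higher and 34.7% lower in VTA, and the 9 members called are to be read against that share. The median log2 fold change was -1.13 over the members and 0.02 over all genes tested. The levels of 7 members did not overlap between the regions, as was so for 27.7% of all genes tested. Each region came as a table of its own, so a difference in preparation between them cannot be told apart from the region. In bulk tissue, fewer cells of a type and less RNA per cell cannot be told apart either.

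**Figure D1:**
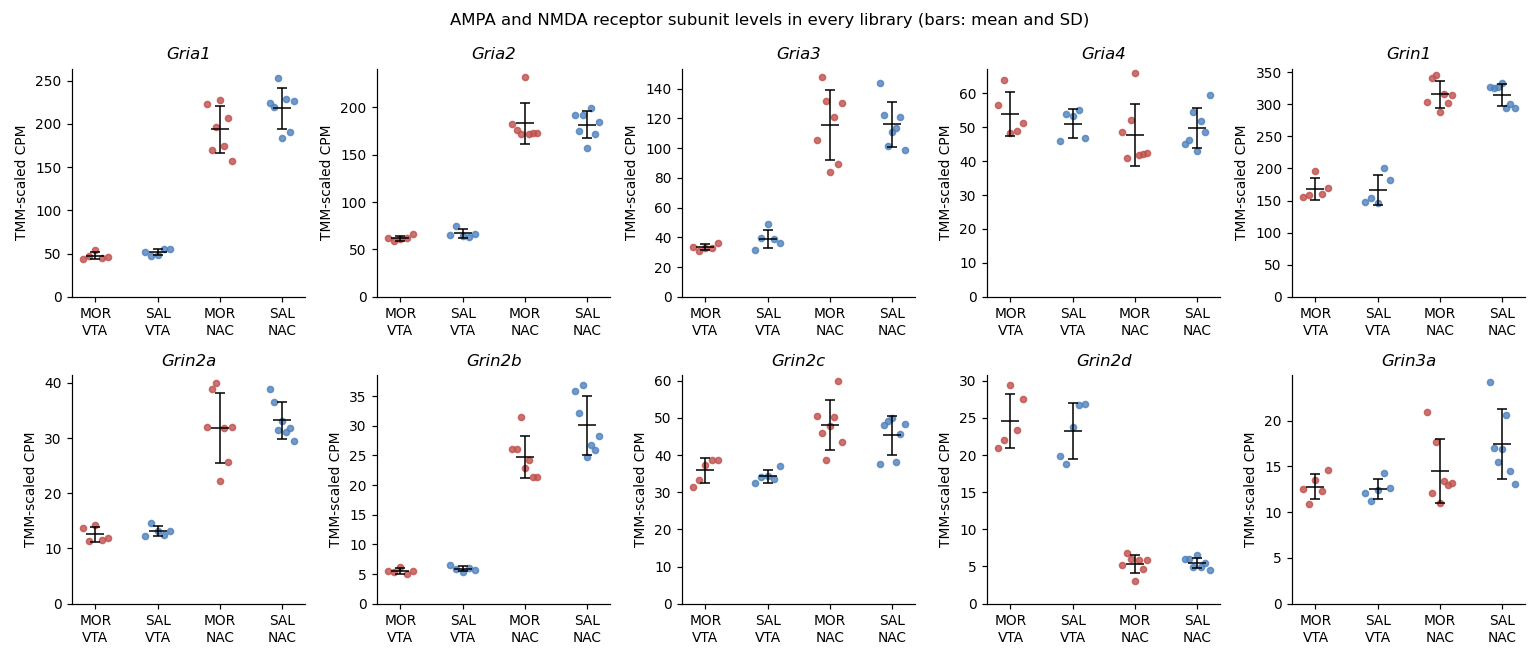
Level of each of the 10 subunits (vertical axis, TMM-scaled CPM from 0) in each library, by sire group and region, with the mean and SD of each group as bars. Grin2d is the only panel in which every VTA library stands above every NAC library, while Gria4 overlaps between the regions.

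Among the AMPA receptor genes, Gria1, Gria2 and Gria3 were each lower in every VTA library than in any NAC library. Gria1, which encodes the GluA1 subunit that is added to synapses during plasticity, ranged over the 10 VTA libraries from 44.0 through a median of 47.9 to 55.6 CPM. In the 14 NAC libraries it ranged from 157 through a median of 213 to 254 CPM. Its log2 fold change of VTA over NAC was -2.06 (SE 0.07, adjusted p 3.25e-17 by edgeR's quasi-likelihood test). Gria2, the subunit whose RNA editing controls calcium entry, had 58.4, 63.7 and 74.3 CPM as its lowest, median and highest VTA levels, against 157, 176 and 232 CPM in NAC. The log2 fold change was -1.50 (SE 0.05, adjusted p 5.04e-17 in the same test), a smaller difference than that of Gria1.

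Gria3, an X-linked gene, had a lowest, median and highest level of 31.0, 34.9 and 48.7 CPM in VTA and of 83.9, 117 and 148 CPM in NAC. Its log2 fold change was -1.68 (SE 0.09, adjusted p 2.20e-13 by edgeR's quasi-likelihood test), with no overlap between regions. Gria4, which encodes the fast-gating GluA4 subunit, stood apart from the other 3 AMPA genes. It had 46.1, 52.3 and 63.9 CPM in VTA and 40.9, 47.5 and 65.9 CPM in NAC, with overlapping ranges. Its log2 fold change was 0.10 (SE 0.08, adjusted p 0.24), with a 95% interval of the fold from 0.962 to 1.20. Without MOR-sired NAC 4, the library with the highest Gria4 level, Gria4 was called higher in VTA (log2 fold change 0.16, adjusted p 0.034 in the same test).

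Among the NMDA receptor genes, Grin1, Grin2a and Grin2b were lower in every VTA library than in any NAC library. Grin1, which encodes the obligatory GluN1 subunit, had a lowest, median and highest level of 146, 159 and 200 CPM in VTA and of 288, 315 and 346 CPM in NAC. Its log2 fold change was -0.92 (SE 0.05, adjusted p 6.65e-13 by edgeR's quasi-likelihood test). Grin2a, for the GluN2A subunit of mature synapses, had 11.3, 12.8 and 14.6 CPM in VTA, against 22.2, 31.9 and 39.9 CPM in NAC. Its log2 fold change was -1.34 (SE 0.08, adjusted p 1.63e-12 in the same test). Grin2b, for the slower GluN2B subunit that prevails early in life, differed most among the members that were lower, with 5.01, 5.54 and 6.55 CPM in VTA and 21.3, 26.1 and 36.9 CPM in NAC. The log2 fold change of Grin2b was -2.26 (SE 0.08, adjusted p 9.49e-17), which is 4.78-fold lower in VTA.

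Grin2d, which encodes GluN2D, a slowly deactivating subunit with weak magnesium block known from subcortical neurons and some interneurons, was the member that was higher in VTA. Its lowest, median and highest levels were 18.8, 23.6 and 29.4 CPM in VTA and 2.98, 5.70 and 6.75 CPM in NAC. Every VTA library thus stood above every NAC library, with a log2 fold change of 2.14 (SE 0.11, adjusted p 3.18e-14 by edgeR's quasi-likelihood test), or 4.42-fold. The remaining NMDA genes differed least. Grin2c, for the GluN2C subunit best known from cerebellar granule cells and astrocytes, had 31.3 to 38.8 CPM in VTA and 37.7 to 60.0 CPM in NAC, with a log2 fold change of -0.41 (SE 0.06, adjusted p 6.73e-06 in the same test). Grin3a, for the GluN3A subunit that lowers calcium entry, had 10.9 to 14.6 CPM in VTA and 11.0 to 24.3 CPM in NAC, with a log2 fold change of -0.33 (SE 0.11, adjusted p 0.00929). The ranges of both genes overlapped between the regions.

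The members called were also called without the 4 Xist libraries, without MOR-sired NAC 2 and 7, and among SAL-sired libraries alone, with Gria4 again not called in each of these. Glial and neuronal markers moved with region as well. The summed level of 5 oligodendrocyte markers, all 5 of them higher in VTA, was 22038 to 33009 CPM in VTA and 7899 to 11015 CPM in NAC. The summed level of 5 astrocyte markers, 4 of them higher, was 1158 to 2035 CPM in VTA and 818 to 1138 CPM in NAC. The summed level of 4 markers of neurons in general, 3 of them lower, was 2927 to 3526 CPM in VTA and 3517 to 5205 CPM in NAC. Their part in the differences of the subunits was not tested.

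The promoter of Grin2d, higher in VTA, is shown beside that of Grin1, lower in VTA, and that of Gria4, which overlapped between regions, because these 3 genes went different ways. Each sequence runs from 250 bases before to 50 bases after the annotated start in RefSeq's annotation of GRCr8, on the strand of the gene, and capitals mark GC boxes (GGGCGG).
Grin2d, chr1:105481187-105481486, minus strand: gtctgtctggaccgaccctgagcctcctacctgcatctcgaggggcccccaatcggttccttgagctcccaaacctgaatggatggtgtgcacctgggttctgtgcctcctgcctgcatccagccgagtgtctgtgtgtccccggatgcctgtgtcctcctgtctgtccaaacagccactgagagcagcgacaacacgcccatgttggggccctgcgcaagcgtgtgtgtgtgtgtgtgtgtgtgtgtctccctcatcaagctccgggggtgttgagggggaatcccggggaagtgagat
Grin1, chr3:28528705-28529004, minus strand: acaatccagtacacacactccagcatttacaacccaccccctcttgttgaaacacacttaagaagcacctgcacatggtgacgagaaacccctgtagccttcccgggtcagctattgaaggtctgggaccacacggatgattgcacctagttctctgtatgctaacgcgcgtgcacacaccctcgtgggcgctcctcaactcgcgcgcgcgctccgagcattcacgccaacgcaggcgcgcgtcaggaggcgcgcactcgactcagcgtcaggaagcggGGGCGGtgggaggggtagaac
Gria4, chr8:10319832-10320131, minus strand: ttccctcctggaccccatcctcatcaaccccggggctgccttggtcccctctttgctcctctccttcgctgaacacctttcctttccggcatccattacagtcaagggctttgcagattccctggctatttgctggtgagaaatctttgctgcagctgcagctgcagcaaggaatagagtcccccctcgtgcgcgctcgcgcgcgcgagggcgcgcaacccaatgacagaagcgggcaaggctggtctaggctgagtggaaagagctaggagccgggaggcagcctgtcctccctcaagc
The Grin1 window holds 25 CG dinucleotides, the Gria4 window 15 and the Grin2d window 11, against a median of 7 over 33469 RefSeq promoters of the same length. Searched on both strands, the GC box was found once in the Grin1 window and in 33.1% of all promoters. The E-box CAGGTG was found once each in the Grin2d and Grin1 windows and in 18.8% of all promoters, and the cAMP response element TGACGTCA in none of the 3 windows and in 1.83% of all promoters. These matches describe the letters only. The promoters of Grin2c and Grin3a were also matched and are not printed. For Gria1, Gria2, Gria3, Grin2a and Grin2b no promoter of this length was available, so they were not searched.

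**Figure D2:**
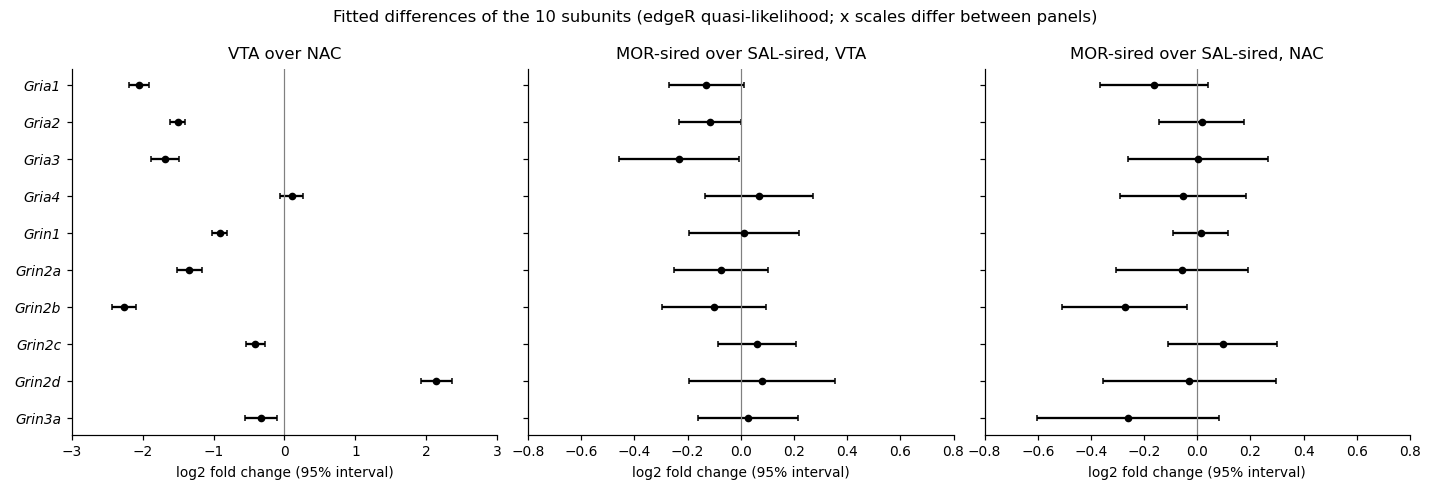
Fitted log2 fold change of each subunit with its 95% interval, in 3 panels: VTA over NAC, MOR-sired over SAL-sired in VTA, and MOR-sired over SAL-sired in NAC (the horizontal scale of the first panel is wider). The region differences run from -2.26 for Grin2b to 2.14 for Grin2d, whereas the sire differences lie between -0.27 and 0.10.

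Per length, Grin1 was the most abundant member in each region. In VTA the mean levels (SD over 10 libraries) ran from Grin1 at 167 ± 19.3 CPM through Gria2 at 64.3 ± 4.29, Gria4 at 52.4 ± 5.39, Gria1 at 49.5 ± 4.26, Gria3 at 36.1 ± 5.25, Grin2c at 35.1 ± 2.65 and Grin2d at 23.9 ± 3.56 to Grin2a at 12.8 ± 1.12, Grin3a at 12.7 ± 1.19 and Grin2b at 5.70 ± 0.476 CPM. Neighbours in this order that did not differ beyond their spread were Gria4 and Gria1 (Gria4 higher in 6 of 10 libraries), Gria3 and Grin2c (Gria3 higher in 4 of 10) and Grin2a and Grin3a (Grin2a higher in 7 of 10).

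In NAC the order of the mean levels (SD over 14 libraries) was different. Grin1 at 315 ± 18.6 CPM was followed by Gria1 at 206 ± 27.8, Gria2 at 182 ± 17.9, Gria3 at 116 ± 19.1, Gria4 at 48.8 ± 7.40 and Grin2c at 46.7 ± 5.94 CPM. Grin2a at 32.5 ± 4.96, Grin2b at 27.4 ± 4.95, Grin3a at 16.0 ± 3.86 and Grin2d at 5.42 ± 0.975 CPM came last. Gria1 was above Gria2 in 11 of 14 libraries, and Grin2a above Grin2b in 12 of 14, while Gria4 and Grin2c could not be ordered (Gria4 higher in 7 of 14).

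These differences gave the summed RNA of each receptor family, per length, another makeup in each region. Protein and the assembly of receptors were not measured. The summed level of the 4 AMPA genes was 202 ± 9.05 CPM in VTA and 553 ± 39.9 CPM in NAC (SD, n = 10 and 14). Gria4 made up 25.9% ± 2.62 of that sum in VTA and 8.80% ± 0.947 in NAC, and Gria1 made up 24.5% ± 2.08 in VTA and 37.1% ± 3.21 in NAC. Gria2 held a similar share, 31.8% ± 1.81 in VTA and 33.0% ± 1.79 in NAC. The 4 GluN2 genes summed to 77.6 ± 5.62 CPM in VTA and 112 ± 7.86 CPM in NAC. Of that sum, Grin2d made up 30.7% ± 2.66 in VTA and 4.82% ± 0.761 in NAC, and Grin2b made up 7.39% ± 0.829 in VTA and 24.4% ± 3.38 in NAC. Grin2c was the largest GluN2 share in each region, at 45.3% ± 1.98 in VTA and 41.8% ± 5.79 in NAC.

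**Figure D3:**
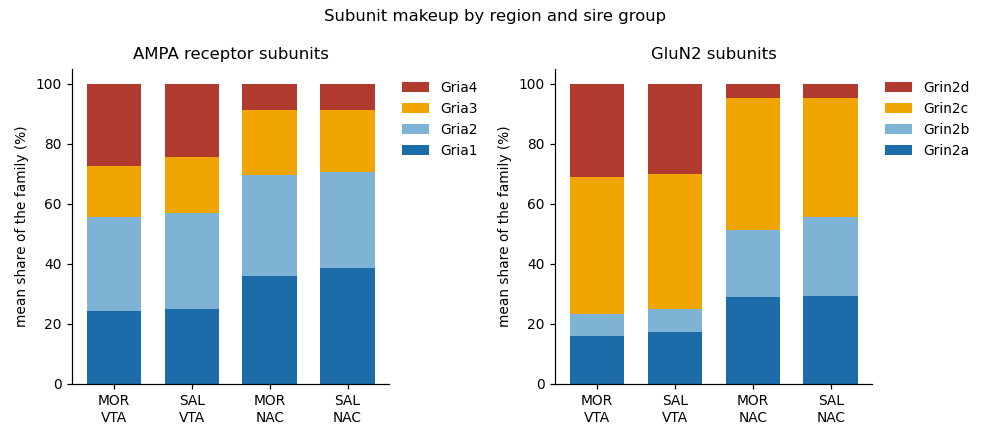
Mean share (percent) of each AMPA receptor gene in the summed AMPA genes (left) and of each GluN2 gene in the summed GluN2 genes (right), as stacked bars for the 4 groups. Gria4 and Grin2d take larger shares in VTA (25.9% and 30.7%) than in NAC (8.80% and 4.82%), and the sire groups of a region look alike in this plot.

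The Gria1 to Gria2 ratio, per length, was below 1 in all 10 VTA libraries, at 0.640 to 0.886, and lay between 0.906 and 1.32 in the 14 NAC libraries. The ranges did not overlap, and the ratio was 0.683-fold in VTA relative to NAC (difference of the mean log2 ratio -0.55, permutation test with 100000 resamples, two-sided p 2e-05, the smallest these resamples can give, adjusted p 6e-05 over 6 ratio tests). The Grin2a to Grin2b ratio went the other way, with 1.87 to 2.51 in VTA and 0.854 to 1.50 in NAC. It was 1.89-fold in VTA relative to NAC (difference of the mean log2 ratio 0.92), again without overlap and with the same p-values in the permutation test.

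The other genes of glutamate receptor signalling were taken from 5 lists of 59 genes in all, of which 58 were tested between regions and Lrrtm1 was not analysed here. Most were lower in VTA, as were most of the members and 3 of 4 markers of neurons in general. Of all 20603 genes tested, 69.0% were called, 34.3% higher and 34.7% lower in VTA. The counts of each list are to be read against these shares. Of 14 auxiliary subunits and assembly factors of AMPA receptors, 11 were lower, 2 were higher and 1 was not called. Cnih2, a cornichon protein that slows AMPA receptor closing, had mean levels of 139 ± 15.4 CPM in VTA and 455 ± 27.7 CPM in NAC. The transmembrane regulators Cacng8 and Cacng3 had log2 fold changes of -2.17 and -1.68. The regulators that were higher in VTA were Cacng2 (stargazin), with 81.7 ± 6.95 CPM in VTA and 61.8 ± 8.19 CPM in NAC, and Cacng7, with a log2 fold change of 0.18.

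Of 19 postsynaptic scaffold and trafficking genes, 16 were lower and 3 were higher in VTA. The scaffold genes Dlg3 and Dlgap2 had log2 fold changes of -1.67 and -3.26. Grip2, whose protein binds GluA2 and GluA3, was higher, with 57.6 ± 9.88 CPM in VTA and 11.9 ± 1.87 CPM in NAC. The others that were higher were Homer3 and Homer2, with log2 fold changes of 0.28 and 0.29. Of 9 genes of kinases, phosphatases and the editing enzyme family, 7 were lower, Adarb2 was higher (log2 fold change 0.87) and Adar was not called. Adar and Adarb1 encode RNA editing enzymes, and Adarb1 was among those lower in VTA (log2 fold change -0.38). The kinases Ptk2b and Camk2a differed most among the 9, with log2 fold changes of -4.28 and -4.44, and Camk2b had -2.00.

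Of 8 kainate, delta and remaining NMDA subunits, 5 were lower in VTA, 1 was higher and 2 were not called. Grik5 and Grid1 had log2 fold changes of -1.41 and -0.81, and Grik4, a kainate receptor subunit, was the one that was higher, at 0.80. Of 8 synapse organisers and D-serine enzymes tested, 6 were lower, Dao was higher and Lrrtm2 was not called. Dao encodes the oxidase that breaks down D-serine, a co-agonist of NMDA receptors, and had mean levels of 16.5 ± 5.38 CPM in VTA and 0.732 ± 0.171 CPM in NAC (log2 fold change 4.46, adjusted p 7.68e-18 by edgeR's quasi-likelihood test). Srr, whose product makes D-serine, and the adhesion gene Lrrtm4 had log2 fold changes of -0.83 and -0.94. The median log2 fold changes of the lists ran from -0.38 for the kinases and editing enzymes to -1.43 for the scaffolds.

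Between MOR-sired and SAL-sired VTA, no subunit was called. Of all 19923 genes tested, 0% were called by edgeR's quasi-likelihood test and 5.31% had an unadjusted p under 0.05, while DESeq2 called 27 genes, none of them a member. The ranges of the sire groups overlapped for all 10 members, where they did not overlap for 0.929% of all genes. Of the 10 members, 1 had an unadjusted p under 0.05, Gria3. It had 33.7, 31.0, 32.8, 33.0 and 36.2 CPM in the MOR-sired VTA libraries, against 31.8, 39.3, 48.7, 38.9 and 36.2 CPM in the SAL-sired VTA libraries. SAL-sired VTA 3 was the high library, and the lowest SAL-sired level lay within the MOR-sired range. The log2 fold change of Gria3 was -0.23 (SE 0.10, unadjusted p 0.0438, adjusted p 0.928 by edgeR's quasi-likelihood test), with a 95% interval of the fold from 0.728 to 0.995.

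Gria1 and Gria2 had means lying the same way, and neither passed the test. Gria2 had 62.0, 58.4, 61.1, 62.2 and 65.7 CPM in MOR-sired VTA, against 65.5, 74.3, 64.4, 63.1 and 66.5 CPM in SAL-sired VTA (log2 fold change -0.12, SE 0.05, adjusted p 0.946 by edgeR's quasi-likelihood test). Gria1 had 44.0, 47.3, 54.1, 45.3 and 45.9 CPM in MOR-sired VTA, against 51.7, 47.6, 48.3, 55.6 and 54.8 CPM in SAL-sired VTA (log2 fold change -0.13, SE 0.06, adjusted p 0.953 in the same test). In each gene 4 of 5 MOR-sired libraries lay below every SAL-sired library, the exception being MOR-sired VTA 5 for Gria2 and MOR-sired VTA 3 for Gria1. Gria4 had 56.5, 63.9, 48.3, 49.0 and 51.2 CPM in MOR-sired VTA, against 46.1, 54.0, 53.4, 55.0 and 46.8 CPM in SAL-sired VTA (log2 fold change 0.07, SE 0.09).

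No NMDA receptor gene in VTA had an unadjusted p under 0.05 between the sire groups. Grin1 had 155, 159, 196, 160 and 170 CPM in MOR-sired VTA, against 148, 154, 146, 200 and 181 CPM in SAL-sired VTA, and a log2 fold change of 0.01 (SE 0.09). Grin2d, the gene that marked VTA, had 20.9, 22.1, 29.4, 23.3 and 27.5 CPM in MOR-sired VTA, against 19.9, 18.8, 23.8, 26.8 and 26.8 CPM in SAL-sired VTA, and a log2 fold change of 0.08 (SE 0.12). Each group held low and high libraries for both genes. Grin2b had 5.44, 5.42, 6.26, 5.01 and 5.44 CPM in MOR-sired VTA, against 6.55, 5.85, 5.35, 6.10 and 5.63 CPM in SAL-sired VTA (log2 fold change -0.10, SE 0.09). Grin2a averaged 12.5 ± 1.32 CPM in MOR-sired and 13.1 ± 0.928 CPM in SAL-sired VTA, Grin2c averaged 35.9 ± 3.36 CPM in MOR-sired and 34.3 ± 1.71 CPM in SAL-sired VTA, and Grin3a averaged 12.8 ± 1.38 CPM in MOR-sired and 12.5 ± 1.10 CPM in SAL-sired VTA (SD, n = 5 each). Over the 10 members the 95% intervals of the fold ran from 0.728 to 1.28.

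Without the 4 Xist libraries no member was called in VTA. Gria1, Gria2, Gria3 and Gria4 then had log2 fold changes of -0.16, -0.16, -0.30 and 0.20, and Grin2c, Grin2d and Grin3a, whose fold changes were slightly positive over all libraries, had -0.06, -0.06 and -0.09. In these 6 libraries 3 of 10 members no longer overlapped between the sire groups, as was so for 16.6% of all genes. Gria1 was at 44.0 to 47.3 CPM in MOR-sired VTA and 47.6 to 55.6 CPM in SAL-sired VTA, and Gria2 was at 58.4 to 62.0 CPM in MOR-sired VTA and 63.1 to 74.3 CPM in SAL-sired VTA. Gria4 lay the other way, at 56.5 to 63.9 CPM in MOR-sired VTA and 46.1 to 55.0 CPM in SAL-sired VTA.

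No cell type marker was called between the sire groups of VTA, and the levels of several lists were as follows. The dopamine markers summed to 4094 to 6370 CPM in MOR-sired VTA and 2761 to 6735 CPM in SAL-sired VTA, and with their score as a covariate the log2 fold change of Gria3 was -0.12 (adjusted p 0.973 by edgeR's quasi-likelihood test). The 3 serotonin neuron markers, all with an unadjusted p under 0.05, summed to 98.9 to 275 CPM in MOR-sired VTA and 0.812 to 88.4 CPM in SAL-sired VTA, without overlap. Slc17a6, the marker of subcortical glutamatergic neurons, was at 21.4 to 58.6 CPM in MOR-sired VTA and 29.2 to 119.5 CPM in SAL-sired VTA (unadjusted p 0.0467, adjusted p 0.934 by edgeR's quasi-likelihood test). The 5 oligodendrocyte markers, all with higher means in MOR-sired VTA and 2 with an unadjusted p under 0.05, summed to 24478 to 33009 CPM in MOR-sired VTA and 22038 to 27764 CPM in SAL-sired VTA. The 3 choroid plexus markers, all with lower means in MOR-sired VTA and 1 with an unadjusted p under 0.05, summed to 3.47 to 7.12 CPM in MOR-sired VTA and 5.47 to 43.3 CPM in SAL-sired VTA. Cortical markers summed to 6.32 to 19.2 CPM in MOR-sired VTA and 5.66 to 131 CPM in SAL-sired VTA, with 2 of the 4 tested at an unadjusted p under 0.05. The 3 GABA neuron markers all had higher means in MOR-sired VTA (log2 fold changes 0.30 to 0.44), with 0 at an unadjusted p under 0.05. Of the astrocyte markers Aldh1l1, and of the striatal markers Adora2a, had an unadjusted p under 0.05 (0.0390 and 0.0270 by edgeR's quasi-likelihood test). Both had lower means in MOR-sired VTA. The part of the markers other than the dopamine markers in the values of the subunits was not tested.

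Of the 5 lists, no gene was called between the sire groups in VTA. Of the 14 AMPA receptor auxiliary genes, 4 had an unadjusted p under 0.05, namely Shisa6, Shisa9, Cacng4 and Cnih3, the last of which was named after its values were seen. Shisa6, whose protein holds AMPA receptors at the synapse, had 7.85, 6.73, 7.19, 7.89 and 7.95 CPM in MOR-sired VTA, against 6.09, 6.24, 5.77, 6.61 and 6.37 CPM in SAL-sired VTA. The groups did not overlap, with a log2 fold change of 0.27 (SE 0.07, unadjusted p 0.00399, adjusted p 0.793 by edgeR's quasi-likelihood test). Shisa9 and Cacng4 did not overlap either and had log2 fold changes of 0.17 and 0.11, and Cnih3 had -0.98.

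Among the remaining lists, Dao stood out in VTA. It had 21.9, 26.6, 17.6, 17.9 and 17.6 CPM in MOR-sired VTA, against 10.8, 17.2, 12.4, 8.14 and 14.5 CPM in SAL-sired VTA. Every MOR-sired library was above every SAL-sired library, with a log2 fold change of 0.69 (SE 0.20, unadjusted p 0.00572, adjusted p 0.793 by edgeR's quasi-likelihood test). Grip2 averaged 63.6 ± 7.91 CPM in MOR-sired and 51.6 ± 8.17 CPM in SAL-sired VTA (unadjusted p 0.0208, adjusted p 0.886 in the same test). Camk2a averaged 47.2 ± 4.76 CPM in MOR-sired and 84.5 ± 63.7 CPM in SAL-sired VTA (adjusted p 0.937), where SAL-sired VTA 2, the VTA library with the most cortical markers at 131 CPM, held 196 CPM of Camk2a. Grik4 had a log2 fold change of 0.14 (adjusted p 0.946). Grik2, Grik3, Homer3, Dlgap1, Ptk2b, Camk2b, Nptxr and Nptx1, the others with the smallest p of their lists, had log2 fold changes between -0.33 (Ptk2b) and 0.20 (Grik3).

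Between MOR-sired and SAL-sired NAC, no subunit was called. Of all 18220 genes tested, 0% were called by edgeR's quasi-likelihood test and 6.18% had an unadjusted p under 0.05, while DESeq2 called 4 genes, none of them a member. All 10 members overlapped between the sire groups, where 0.0714% of all genes did not. Grin2b was the 1 member of 10 with an unadjusted p under 0.05. Its lowest, median and highest levels were 21.3, 24.2 and 31.4 CPM in MOR-sired NAC and 24.7, 28.2 and 36.9 CPM in SAL-sired NAC. The 7 MOR-sired values lay lower on the whole, with MOR-sired NAC 3 inside the upper part of the SAL-sired range. The log2 fold change was -0.27 (SE 0.11, unadjusted p 0.0258, adjusted p 0.712 by edgeR's quasi-likelihood test), with a 95% interval of the fold from 0.704 to 0.974.

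Gria1 had a lowest, median and highest level of 157, 196 and 228 CPM in MOR-sired NAC and of 184, 224 and 254 CPM in SAL-sired NAC (log2 fold change -0.16, SE 0.10, adjusted p 0.868 by edgeR's quasi-likelihood test). The lowest values of Gria1 were those of MOR-sired NAC 7 and 2, and without these libraries its log2 fold change was -0.07. Gria2 had 172, 173 and 232 CPM in MOR-sired NAC and 157, 185 and 199 CPM in SAL-sired NAC (log2 fold change 0.02, SE 0.08), with MOR-sired NAC 4 as the highest of all. Gria3 averaged 116 ± 23.6 CPM in MOR-sired and 116 ± 15.2 CPM in SAL-sired NAC, and Gria4 averaged 47.7 ± 9.06 CPM in MOR-sired and 49.8 ± 5.82 CPM in SAL-sired NAC (SD, n = 7 each).

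The obligatory Grin1 varied least among the members in NAC relative to its mean, with 288, 314 and 346 CPM in MOR-sired and 294, 325 and 333 CPM in SAL-sired NAC (log2 fold change 0.01, SE 0.05). Grin3a had 11.0, 13.2 and 21.0 CPM in MOR-sired NAC and 13.1, 17.0 and 24.3 CPM in SAL-sired NAC (log2 fold change -0.26, SE 0.16, adjusted p 0.891 by edgeR's quasi-likelihood test). Each of these sire differences was within the spread of the libraries. Grin2a averaged 31.8 ± 6.39 CPM in MOR-sired and 33.2 ± 3.34 CPM in SAL-sired NAC, Grin2c averaged 48.1 ± 6.66 CPM in MOR-sired and 45.3 ± 5.23 CPM in SAL-sired NAC, and Grin2d averaged 5.35 ± 1.23 CPM in MOR-sired and 5.48 ± 0.729 CPM in SAL-sired NAC. The 95% intervals of the fold ran from 0.659 to 1.23 over the members.

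No member was called in NAC with the striatal or the cortical marker score as a covariate. The striatal markers summed to 493 to 7508 CPM in MOR-sired NAC and 1533 to 5588 CPM in SAL-sired NAC, and the cortical markers to 136 to 1694 CPM in MOR-sired NAC and 713 to 1539 CPM in SAL-sired NAC. No cell type marker was called in NAC. Aqp4 (astrocytes), Csf1r (microglia), Flt1 (endothelial cells) and Pdgfra (oligodendrocyte precursors) had lower means in MOR-sired NAC. Their unadjusted p were under 0.05 (adjusted p 0.56, 0.562, 0.673 and 0.707 by edgeR's quasi-likelihood test). Their part in the values of the subunits was not tested. With the striatal score, the log2 fold changes of Grin2b, Gria3 and Grin2a were -0.29, -0.14 and -0.17 (adjusted p 0.251, 0.232 and 0.266 by edgeR's quasi-likelihood test). With the cortical score that of Grin2b was -0.26 and that of Gria1 -0.20 (adjusted p 0.431 and 0.389). Of the 5 lists no gene was called in NAC. The smallest unadjusted p were those of Cpt1c, an AMPA receptor assembly factor, with 72.2 ± 3.98 CPM in MOR-sired and 66.3 ± 2.88 CPM in SAL-sired NAC (unadjusted p 0.00834, adjusted p 0.607), and of the synapse organiser Lrrtm2, with 26.7 ± 3.55 CPM in MOR-sired and 30.5 ± 2.56 CPM in SAL-sired NAC (unadjusted p 0.0363, adjusted p 0.76). Of the others with the smallest p of their lists, Grid1, Grik3, Frrs1l, Dlg2, Grip1, Fyn, Camk2a, Adar and Dao had log2 fold changes between -0.28 (Dao) and -0.05 (Fyn), and Shisa7, Homer1 and Nptx2 had 0.15, 0.14 and 0.14.

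The sire effect in VTA minus that in NAC was tested in a fit of all 24 libraries, and 0 of the 10 members and 0% of 20603 genes were called by edgeR's quasi-likelihood test. An unadjusted p under 0.05 was found for 0 members and 4.78% of all genes, and DESeq2 called 93 genes, none of them a member. The log2 differences ran from -0.22 for Gria3 to 0.30 for Grin3a, and the 95% intervals of the fold from 0.665 to 1.67. Of the 5 lists, Dao had the smallest p, with a log2 difference of 0.98 (SE 0.26, unadjusted p 0.00122, adjusted p 0.535 in the same test). Camk2a followed, at -0.76 (unadjusted p 0.0416, adjusted p 1). The others with the smallest p of their lists were Grik4, Grik3, Grid1, Cnih3, Shisa9, Cacng7, Grip2, Homer1, Grip1, Ptk2b, Fyn, Lrrtm2 and Nptx2, with log2 differences from -0.85 (Cnih3) to 0.44 (Grik3). Without the 4 Xist libraries 7 genes were called in this comparison, none of them a member.

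**Figure D4:**
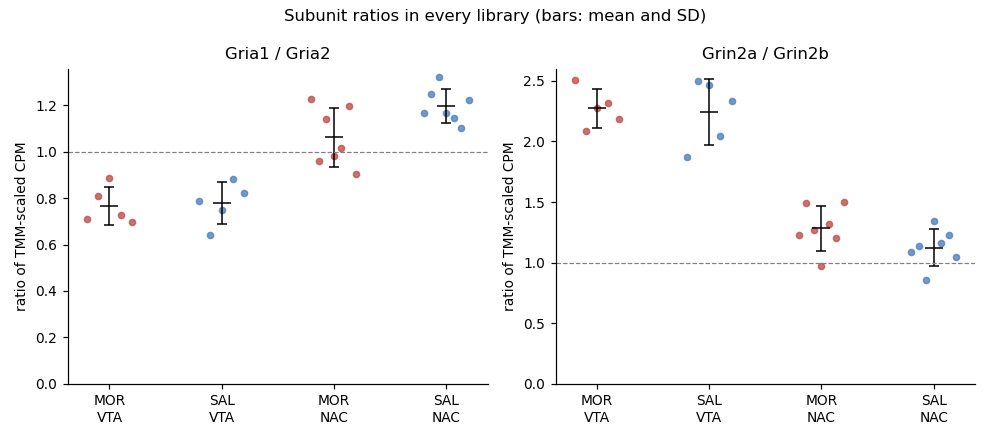
Gria1 to Gria2 ratio (left) and Grin2a to Grin2b ratio (right) in each library, from levels in TMM-scaled CPM, with the mean and SD of each group as bars and a dashed line at 1. All VTA libraries lie below every NAC library on the left (0.640 to 0.886, against 0.906 to 1.32) and above every NAC library on the right (1.87 to 2.51, against 0.854 to 1.50).

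The subunit ratios did not pass the test between the sire groups. In VTA the Gria1 to Gria2 ratio was 0.710, 0.810, 0.886, 0.727 and 0.698 in the MOR-sired libraries, against 0.789, 0.640, 0.750, 0.881 and 0.824 in the SAL-sired libraries. The groups overlapped throughout (difference of the mean log2 ratio -0.02, exact permutation test, two-sided p 0.873, where 5 against 5 can reach 0.00794). In NAC it averaged 1.06 ± 0.126 in MOR-sired libraries, from 0.906 to 1.23, and 1.20 ± 0.0740 in SAL-sired libraries, from 1.10 to 1.32 (SD, n = 7 each). All 7 SAL-sired NAC libraries were above 1, as were 4 of 7 MOR-sired NAC libraries.

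The NAC difference of the mean log2 Gria1 to Gria2 ratio was -0.18 (exact permutation test, two-sided p 0.0344, adjusted p 0.0688 over the 6 ratio tests, where 7 against 7 can reach 0.000583). It passed the threshold when MOR-sired NAC 1 was left out (-0.22, adjusted p 0.0303) and when MOR-sired NAC 6 was left out (-0.21, adjusted p 0.035), and it was -0.11 (adjusted p 0.223) without MOR-sired NAC 2 and 7 together. MOR-sired NAC 1 and 6 held the highest ratios of their group (1.23 and 1.20), so leaving either out had to widen the difference. MOR-sired NAC 7 and 2 held the lowest (0.906 and 0.962), so leaving them out had to narrow it. Whether the difference passed the threshold thus depended on single libraries, while its sign was negative in all 18 alternatives.

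The Grin2a to Grin2b ratio in VTA was 2.51, 2.08, 2.27, 2.32 and 2.19 in MOR-sired libraries, against 1.87, 2.50, 2.47, 2.04 and 2.33 in SAL-sired libraries (difference of the mean log2 ratio 0.02, exact permutation p 0.802). In NAC it averaged 1.28 ± 0.182 in MOR-sired libraries, from 0.969 to 1.50, and 1.12 ± 0.154 in SAL-sired libraries, from 0.854 to 1.34. The NAC difference was 0.19 (exact permutation test, two-sided p 0.117, adjusted p 0.176). Without MOR-sired NAC 4, the MOR-sired NAC library with the lowest ratio, the difference was 0.26 (adjusted p 0.042 by the same exact test).

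Within NAC, the subunits varied with the marker content of the punch. Each member was set against a striatal and a cortical score, the mean log2(CPM + 1) of the 9 and the 6 markers, in a family of 36 relations that also held the ratios and a dopamine score in VTA. No member belongs to a marker list, but the levels and the scores come from the same libraries. Gria3, Grin2a, Grin2d and Grin1 were higher in NAC libraries with more cortical markers and lower in those with more striatal markers, while Gria1 and Gria4 were higher in those with more striatal markers. With the striatal score 6 of 10 members passed by both Pearson's r and Spearman's rho, and with the cortical score 4 of 10 did (permutation tests, adjusted p under 0.05). The striatal and cortical scores ran largely opposite over these libraries, from 9.02 and 3.21 in MOR-sired NAC 4 to 4.88 and 6.19 in MOR-sired NAC 2. Passing with both scores is therefore not read as 2 separate findings. The share of all genes that follow these scores was not computed, so the counts are not read as particular to the subunits.

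Grin2d, at 2.98 to 6.75 CPM in NAC, had r 0.96 and rho 0.87 with the cortical score over 14 libraries (permutation p 1e-05 and 8e-05, the first the smallest these resamples can give, adjusted p 0.00012 and 0.00096). Leaving out MOR-sired NAC 4 and 6, whose scores lay farthest from the median, gave r 0.89, and r was 0.98 within MOR-sired and 0.91 within SAL-sired libraries. Gria3 had r 0.85 and rho 0.90 with the cortical score (adjusted p 0.00012 and 0.00096 by permutation) and r -0.89 and rho -0.90 with the striatal score (adjusted p 0.00018 and 0.00096). Without the 2 farthest libraries these r were 0.84 and -0.84. Both relations of Gria3 held its direction within each sire group, with r 0.89 in MOR-sired and 0.79 in SAL-sired libraries for the cortical score and r -0.97 in MOR-sired and -0.83 in SAL-sired libraries for the striatal score.

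Grin2a had r 0.88 and rho 0.86 with the cortical score (adjusted p 0.00012 and 0.0013 by permutation, r 0.72 without MOR-sired NAC 4 and 6) and r -0.74 and rho -0.82 with the striatal score. Its r with the cortical score was 0.91 within MOR-sired and 0.74 within SAL-sired libraries, and with the striatal score it was -0.85 within MOR-sired and -0.76 within SAL-sired libraries. Grin1 had r 0.67 and rho 0.69 with the cortical score (adjusted p 0.00968 and 0.0273) and r -0.70 and rho -0.63 with the striatal score. For Grin1 the r with the cortical score was 0.83 within MOR-sired and 0.41 within SAL-sired libraries, and 0.62 without MOR-sired NAC 4 and 6. Its r with the striatal score was -0.88 within MOR-sired and -0.42 within SAL-sired libraries, and -0.55 without MOR-sired NAC 2 and 4. Gria1 had r 0.79 and rho 0.78 with the striatal score (adjusted p 0.00458 and 0.00715 by permutation), r 0.74 without MOR-sired NAC 2 and 4, and r 0.85 within MOR-sired and 0.67 within SAL-sired libraries. Gria4 had r 0.62 and rho 0.64 with the striatal score (adjusted p 0.0443 and 0.0455), and r 0.43 without MOR-sired NAC 2 and 4 (r 0.52 within MOR-sired and 0.93 within SAL-sired libraries), so that this relation rests partly on them.

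The other members showed less of this. With the cortical score Gria2 had r -0.79 (adjusted p 0.0197) and rho -0.52 (adjusted p 0.13), and Gria4 r -0.69 (adjusted p 0.0225) and rho -0.53 (adjusted p 0.125), so each passed by r alone. Gria1 passed by rho alone (rho -0.71, adjusted p 0.0183, against r -0.52, adjusted p 0.0994). Grin2b and Grin3a had r 0.02 and -0.01 with the striatal score and did not pass with either score, nor did Grin2c. The Grin2a to Grin2b ratio had r -0.78 and rho -0.80 with the striatal score (adjusted p 0.00458 and 0.00483 by permutation), while the Gria1 to Gria2 ratio had r 0.56 and rho 0.54 (adjusted p 0.0903 and 0.114).

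**Figure D5:**
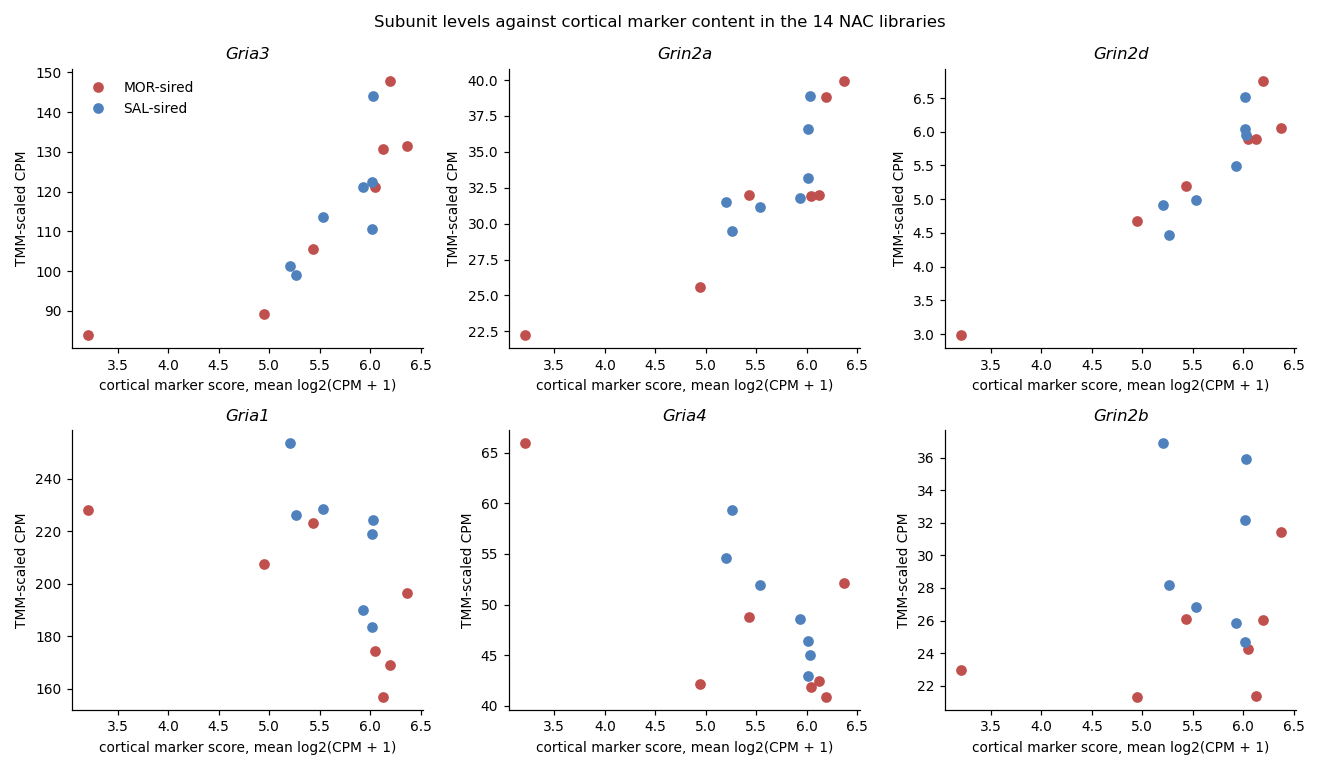
Level of 6 subunits (vertical axes, TMM-scaled CPM, not from 0) against the cortical marker score, the mean log2(CPM + 1) of 6 markers (horizontal axes), in the 14 NAC libraries, coloured by sire group. Gria3, Grin2a and Grin2d climb with the score (r 0.85, 0.88 and 0.96), and the single point at the far left of each panel is MOR-sired NAC 4.

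In VTA, 1 of 10 members passed by r against the dopamine score and 0 by rho. Gria3 had r -0.76 (adjusted p 0.0323 by permutation) and rho -0.49 (adjusted p 0.255) over 10 libraries. Without SAL-sired VTA 3 and 4, the libraries with the lowest scores, r was -0.18, so this relation rests on those libraries.

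Among the members themselves, over the 14 NAC libraries, the pattern of Gria3 was closest to that of Grin2a (r 0.90) and that of Grin2d to that of Grin2a (r 0.87), while Gria2 and Grin2d ran opposite (r -0.83). Over the 10 VTA libraries the closest pair was Grin1 and Grin2d (r 0.78), followed by Grin2d and Grin3a (r 0.74). These correlations of log2 CPM are descriptions, and the libraries share depth and tissue composition.

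The genes with patterns most like a member were taken from 11697 candidates in VTA and 11639 in NAC. In VTA, Grin2c was closest to Shisa7 (r 0.97), an auxiliary subunit gene, and to Ubqln4 (r 0.96), Grin1 to Evi5l and Tmem59l (each r 0.97), and Grin2d to Slc2a8 and Plekhm1 (each r 0.96). Gria2 was closest to Rnft1 and Phtf2 (each r 0.96), Gria4 to Mb21d2 (r 0.97) and Nup37 (r 0.95), Gria3 to Sema3c (r 0.93), and Gria1 to Irgq (r 0.93) and Fbxo2 (r 0.92). Grin3a was closest to Gse1 (r 0.94) and Ssh1 (r 0.93), Grin2b to Zfp507 (r 0.91) and Naxd (r 0.90), and Grin2a to Senp3 (r 0.89) and Ghrl (r 0.86).

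In NAC, Grin2d was closest to Atp13a2 (r 0.99) and Pcbp4 (r 0.98), Gria1 to Fam168b (r 0.98) and Aff4 (r 0.97), and Gria3 to Rasal2 and Trim2 (each r 0.97). Grin2a was closest to Ptprg and to Map1b, a microtubule-associated protein gene of neurons (each r 0.97), Gria2 to Fgd4 (r 0.95) and Cul5 (r 0.93), and Gria4 to Man1a2 (r 0.94) and the neuronal adhesion gene Cntnap2 (r 0.94). Grin3a was closest to Plcxd3 (r 0.94) and Sod2 (r 0.92), Grin2b to Mib1 (r 0.93) and Rlim (r 0.92), Grin2c to Ppp1r12c (r 0.93) and Hps1 (r 0.88), and Grin1 to Cdk5r1 (r 0.91), an activator of the kinase Cdk5, and Map7d1 (r 0.90). These r values are descriptions over few libraries and many candidates, with no test.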

How the data were processed

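The authors deposited a table of estimated counts per region, made from transcript abundances scaled to the library total, per the file headers and names. Per the submitters' processing notes, Trim Galore, kallisto and DESeq2 were used. The sources used here give no genome build, annotation or strand setting. Estimated counts were rounded. Genes kept by filterByExpr were tested with edgeR's quasi-likelihood test (edgeR 4.0.16, R 4.3.3), TMM factors and Benjamini-Hochberg adjustment over all genes kept, within each region for sire effects and over 24 libraries with 4 group means for regions and for the difference of sire effects. Tests were two-sided and calls made at 0.05. Standard errors were log2 fold changes divided by the square root of F. The fits were tested on simulated data. Log2 ratios were compared by permutation tests (scipy 1.17.1), adjusted over 6. DESeq2 1.42.0 was an alternative. Alike genes had a mean of at least 5 CPM and the highest Pearson r of log2 CPM (prior count 2). The 3 genes of smallest p of each list were named, and genes behind a count of 5 or fewer after their values were seen; some genes under these rules are not reported here. Members and lists were chosen with earlier results of these data known.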

Additional observations from a re-analysis of the deposited data

Results flagged for a closer look

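Gria2 in MOR-sired NAC 4 lay far from the other libraries of its group. It was at 232 CPM, against 172 to 182 CPM in the other 6 MOR-sired NAC libraries, and the gap to the nearest of them was 0.828 of the range of the group, above Dixon's critical value of 0.568 for 7 samples. In all, 48 groups of values (the 10 members and 2 ratios in 4 groups) were examined in this way, and chance flags about 1 in 20. The same library had the highest striatal score (9.02) and the lowest cortical score (3.21) of the 14 NAC libraries, and the lowest Grin2d level of all (2.98 CPM). The part of its marker content in its Gria2 level was not tested.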

How the results depend on the processing

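Over all alternatives no called difference changed direction, and each of the 10 subunits kept its call, with 1 exception named in the report, Gria4 between regions without MOR-sired NAC 4. Differences that were not called did change sign: under at least 1 alternative this was so for 6 of 10 members between the NAC sire groups (values after the change -0.14 to 0.07), 5 of 10 between the VTA sire groups (-0.09 to -0.01), 5 of 10 for the difference of the sire effects (-0.09 to 0.07) and both ratios between the VTA sire groups (-0.04 to 0.03), so no direction is read from these. Scaling by RLE or by total counts, no filter on low counts and DESeq2 left 9 members called between regions and 0 in the sire comparisons. DESeq2 called 4 genes in NAC, 27 in VTA and 93 for the difference of the sire effects, where edgeR called 0, and without the 4 Xist libraries edgeR called 7 genes for that difference; no member was among them, and the cause was not tested. When libraries were left out singly, the NAC sire difference of the log2 Gria1 to Gria2 ratio ran from -0.22 to -0.14 and that of the Grin2a to Grin2b ratio from 0.13 to 0.26, and the adjusted p of the exact permutation tests crossed the threshold in 2 and 1 of these runs. A covariate made from the library numbers of the labels was added after seeing the data. It only split the libraries, those numbered above 8 from the rest in NAC and those above 29 from the rest in VTA. With it 0 members were called in each sire comparison.

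The labels do not say whether libraries with the same replicate number share anything. Deviations from the group means of same-numbered libraries correlated at -0.26 to 0.0964 between the NAC sire groups and at -0.128 to 0.132 between the VTA sire groups. Between VTA and NAC they correlated at -0.0455 to 0.0740 in MOR-sired and at 0.000983 to 0.0533 in SAL-sired libraries. Such weak correlations cannot exclude a small effect of a shared animal, litter or day. With the replicate number as a block 0 genes were called in each sire comparison and for their difference. Between regions 13335 of 20427 genes tested were called, and 9 of 10 members. For the regions, this fit and the ratios below used only replicates 1 to 5, the numbers found in both regions. With this block the Gria1 to Gria2 ratio differed by -0.02 in VTA, -0.18 in NAC and -0.56 between regions on the log2 scale (exact sign-flip permutation p 0.938, 0.0781 and 0.00195). The Grin2a to Grin2b ratio differed by 0.02, 0.19 and 0.94 (p 0.875, 0.188 and 0.00195 in the same test). With 5 pairs in VTA this test cannot give a p under 0.05, so it decides nothing there. Between regions 0.00195 is the smallest p it can give.

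Library totals were 21.9 M or more. The least abundant members were Grin2b in VTA, at 5.01 to 6.55 CPM, and Grin2d in NAC, at 2.98 to 6.75 CPM. The values are scaled estimates and not reads, so no counting interval is given.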
